A study of Mus musculus with 24 samples.

Results

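Peroxiredoxins, superoxide dismutases and catalase were followed in the colon and liver of mice as 10 genes, Prdx1 to Prdx6, Sod1 to Sod3 and Cat, chosen by their gene name in the array files. They were represented by 18 of the 41174 probes on the array, and by 10 of its 27962 gene names. For a gene with several probes, the probe with the highest mean intensity was taken as the main one and the others were set beside it. All mice were wild type C57BL/6 females, 12 weeks old, whose mothers ate HF-low, a high-fat diet with little selenium and folate, before mating, in gestation and in lactation. After weaning 6 mice stayed on that diet (HF-low-low) and 6 were switched to a high-fat diet sufficient in both nutrients (HF-low-suf). RNA of whole colon and of liver from each of the 12 mice was hybridised, labelled with Cy3, on 24 two-colour arrays against a Cy5-labelled pool of colon and liver RNA, so that each group held 6 arrays. Values are log2 ratios of a sample to that pool. A value of 0 means the level of the pool, and values of different genes give no order of their levels. The dyes were not swapped.

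Superoxide is formed as a by-product of respiration and by dedicated oxidases. Superoxide dismutases convert it to hydrogen peroxide, which is then removed by catalase in peroxisomes, by peroxiredoxins in the cytosol, mitochondria and endoplasmic reticulum, and by glutathione peroxidases. Peroxiredoxins reduce peroxides with a cysteine and most of them are regenerated by thioredoxin, whose reductases are selenoproteins, while the peroxiredoxins, superoxide dismutases and catalase themselves contain no selenium. Liver is a classical source of catalase because hepatocytes are rich in peroxisomes. The comparisons asked how the expression of these genes differed between the tissues of the same mice, and whether the selenium and folate content of the post-weaning diet changed it in either tissue.

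The probes are 60 bases long. The main probes of Prdx1 and Prdx5 and another probe of Prdx2 matched genome stretches longer than the probe itself (711, 375 and 91 bases longer, by the mm7 positions in the array files), as probes that join neighbouring exons do, so they report spliced RNA. They are shown because the tissue difference of Prdx1 and Prdx5 rests on them alone and that of Prdx2 changes with the probe. Prdx1 was measured at chr4:116069412-116070182 (plus strand), Prdx5 at chr19:6726975-6727409 (minus strand) and Prdx2, by this other probe, at chr8:83556404-83556554 (plus strand). The sequences, 5′ to 3′ as on the array and all in lower case, are:
Prdx1: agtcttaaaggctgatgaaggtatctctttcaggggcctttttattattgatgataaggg
Prdx5: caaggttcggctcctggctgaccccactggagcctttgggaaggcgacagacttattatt
Prdx2: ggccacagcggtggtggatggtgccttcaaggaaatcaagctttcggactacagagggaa

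Upstream sequence was available for 8 of the 10 genes, all but Prdx6 and Sod3, as the 250 bases before the annotated start (RefSeq, GRCm38.p6). The core of the antioxidant response element, the binding sequence of NRF2, was searched as TGACNNNGC on both strands and was present upstream of Prdx1 and Sod1 (2 of 8 genes, against 10.2% of all 32851 upstream windows). The GC box, searched as GGGCGG on both strands, was present for 7 of 8 genes (all but Prdx2) and in 32.7% of all windows. The CCAAT box, searched as CCAAT on both strands, was present for 4 of 8 genes (Prdx4, Sod1, Sod2 and Cat) and in 33.8% of all windows. A TATAAA sequence was found on either strand for Prdx1, Prdx3 and Sod1 and in 12.4% of all windows. The direct repeat bound by peroxisome proliferator-activated receptors, with 1 base between its copies, was in none of the 8 windows and in 0.0335% of all. The motifs do not share letters with one another in the windows below, apart from neighbouring GC boxes of Sod1. The windows of Cat, which had the largest tissue difference of the 10 genes, and of Prdx1 and Sod1, which held the antioxidant core, are at chr2:103485154-103485403 (minus strand), chr4:116685349-116685598 (plus strand) and chr16:90220512-90220761 (plus strand). They are given 5′ to 3′ on the strand of the gene with the antioxidant core and GC boxes in capitals. Whether these letters are bound in colon or liver was not measured.
Cat: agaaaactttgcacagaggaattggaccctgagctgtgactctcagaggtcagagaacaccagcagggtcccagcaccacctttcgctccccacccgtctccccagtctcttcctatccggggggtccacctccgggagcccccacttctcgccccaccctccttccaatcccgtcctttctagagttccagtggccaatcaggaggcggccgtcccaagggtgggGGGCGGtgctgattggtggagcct
Prdx1: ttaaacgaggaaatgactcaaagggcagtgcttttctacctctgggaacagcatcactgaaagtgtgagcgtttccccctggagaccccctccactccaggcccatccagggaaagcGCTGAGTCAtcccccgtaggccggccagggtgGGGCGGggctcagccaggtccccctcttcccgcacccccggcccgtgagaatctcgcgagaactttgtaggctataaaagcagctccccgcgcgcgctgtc
Sod1: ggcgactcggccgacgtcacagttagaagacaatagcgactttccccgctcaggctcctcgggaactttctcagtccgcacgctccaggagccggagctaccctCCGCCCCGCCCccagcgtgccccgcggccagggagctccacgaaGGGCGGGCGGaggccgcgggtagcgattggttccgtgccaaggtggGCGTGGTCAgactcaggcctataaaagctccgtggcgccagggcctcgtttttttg

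Median Cy3 signals were 3.76 to 7.10 times the background of their array, and 26.0% to 70.5% of its spots were well above background. The tissues were set apart by their markers. The mean log2 ratio over 8 hepatocyte genes was 1.42 to 2.09 in livers and -4.22 to -3.90 in colons, and that over 9 colon epithelium genes was 0.15 to 0.77 in colons and -4.41 to -3.10 in livers. Detection alone did not separate them, since 7 of the 8 hepatocyte genes were also well above background on every colon array and 6 of the 9 colon epithelium genes on every liver array. The arrays of colon HF-low-suf replicate 5 and liver HF-low-suf replicate 4 had a brighter Cy5 channel than the other 22, with medians of 17.6 and 12.4 times background against 5.13 to 7.12. Liver HF-low-suf replicate 1 had a mean log2 ratio of 2.87 over 7 adipose markers, against -1.43 to 0.03 in the other livers. Liver HF-low-suf replicate 2 had -2.40 over 9 skeletal muscle markers, against -4.82 to -3.77. Over 6 pancreas acinar markers, livers of HF-low-low replicate 6 and HF-low-suf replicates 4 and 5 had -1.205, -1.125 and -1.533. The other livers had -2.62 to -2.13. The same livers had -3.22, -3.10 and -3.41 over the colon epithelium genes, against -4.41 to -3.91. Colon HF-low-suf replicate 5 had 1.215 over the adipose markers, against 2.33 to 3.23 in the other colons. Without HF-low-suf replicates 4 and 5, the 9 calls of a gene as higher in liver described next were made again, and the call of Prdx2 as higher in colon was not (limma adjusted P = 0.0569).

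Liver held more mRNA of most of these genes than colon. Of the 10 genes, 9 were called higher in liver at an adjusted P below 0.05 (limma, 24 arrays, mouse as a random block), a call that 19.4% of all probes met, and 1, Prdx2, was called higher in colon, as were 19.0% of all probes. The main probes of 9 genes, all but Sod3, were well above background on all 24 arrays. Of these 8 were called higher in liver and 1 higher in colon, against 41.5% and 31.4% of the 9113 probes that were equally well detected. Liver was higher by more than 2-fold for 5 of them (13.9% of those probes). That count depended on the processing and the arrays used. With the Cy3 channel alone Sod1, Prdx6 and Prdx1 fell below 2-fold, with log2 differences of 0.94, 0.96 and 0.90. Prdx1 also did so with median centring (0.98) and within scan day 1 (0.92). Over all alternatives the lowest difference was 2.81 for Cat and 2.02 for Prdx4. The median liver minus colon difference of the 10 genes was 1.02 on the log2 scale, beside 0.12 over the well-detected probes and 0.02 over all probes. In bulk tissue, fewer cells of a type and less RNA per cell cannot be told apart.

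**Figure D1:**
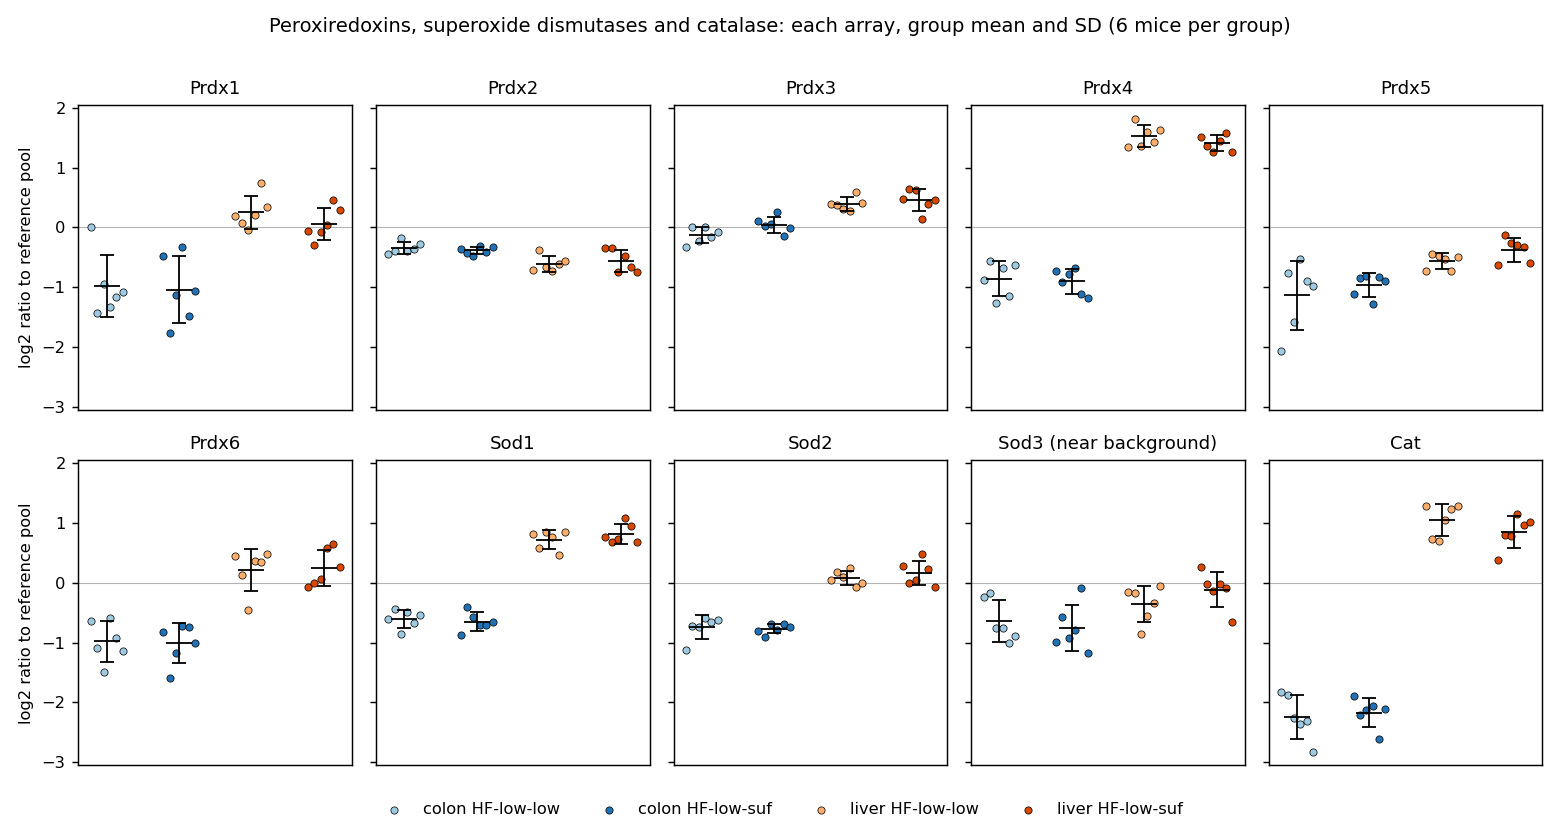
Log2 ratio to the reference pool (y axis) of the main probe of each gene on each array, for colon and liver of HF-low-low and HF-low-suf mice (6 points per group), with the group mean and SD as bars. The liver points of Cat, Prdx4, Sod1, Sod2 and Prdx6 lie above all their colon points, while the 2 diets overlap in every panel.

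Catalase had the largest tissue difference of the 10 genes. Its enzyme breaks hydrogen peroxide down to water and oxygen in peroxisomes. The log2 ratio of Cat was lowest 0.39, median 0.99 and highest 1.29 in the 12 livers, and lowest -2.82, median -2.17 and highest -1.82 in the 12 colons. No liver overlapped with any colon, and the liver was higher in 12 of 12 mice. The difference was 3.16 (SE 0.11, 8.91-fold, limma adjusted P = 1.41e-18, exact sign-flip P = 0.000488, the smallest that 12 mice allow). Within a mouse it ran from 2.28 in HF-low-suf replicate 1 to 4.10 in HF-low-low replicate 6. It was 2.81 in the mice whose arrays were scanned on the first of 2 days and 3.50 in those of the second. Of the 9113 well-detected probes, 2.60% had a larger difference towards liver.

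Superoxide dismutase 1, the copper and zinc enzyme of the cytosol, had the largest difference of the superoxide dismutases. Its main probe had a lowest, median and highest log2 ratio of 0.46, 0.76 and 1.09 in liver and of -0.87, -0.63 and -0.40 in colon. Every liver lay above every colon, and the difference of 1.39 (SE 0.08, 2.63-fold, limma adjusted P = 1.64e-14) varied from 1.01 to 1.79 between mice. The other Sod1 probes were dim, well above background on 9 and 1 of 24 arrays, and give no fold. Both match the accession of another transcript than the main probe in the array files.

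Superoxide dismutase 2, the manganese enzyme of the mitochondrial matrix, was higher in liver by 0.88 (SE 0.08, 1.84-fold, limma adjusted P = 1.67e-10). The livers ran from -0.07 to 0.48 with a median of 0.08, and the colons from -1.13 to -0.59 with a median of -0.73. The tissues did not overlap, and all 12 mice had the higher value in liver. Cat, Sod1, Sod2, Prdx4 and Prdx6 were the 5 genes whose livers and colons did not overlap on the main probe, as was the case in this direction for 17.3% of the well-detected probes.

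Superoxide dismutase 3, the extracellular enzyme, was not measured well in either tissue. Its only probe was well above background on 1 of 12 colon arrays and 1 of 12 liver arrays, which were the 2 arrays with the bright Cy5 channel. Its log2 ratio was -1.17 to -0.09 in colon and -0.86 to 0.26 in liver. The fitted difference of 0.46 (SE 0.12, limma adjusted P = 0.00309) is therefore not given as a fold. The call was lost within each scan day taken alone (adjusted P = 0.0558 and 0.0650) and with median centring of the arrays (0.30, adjusted P = 0.0667).

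**Figure D2:**
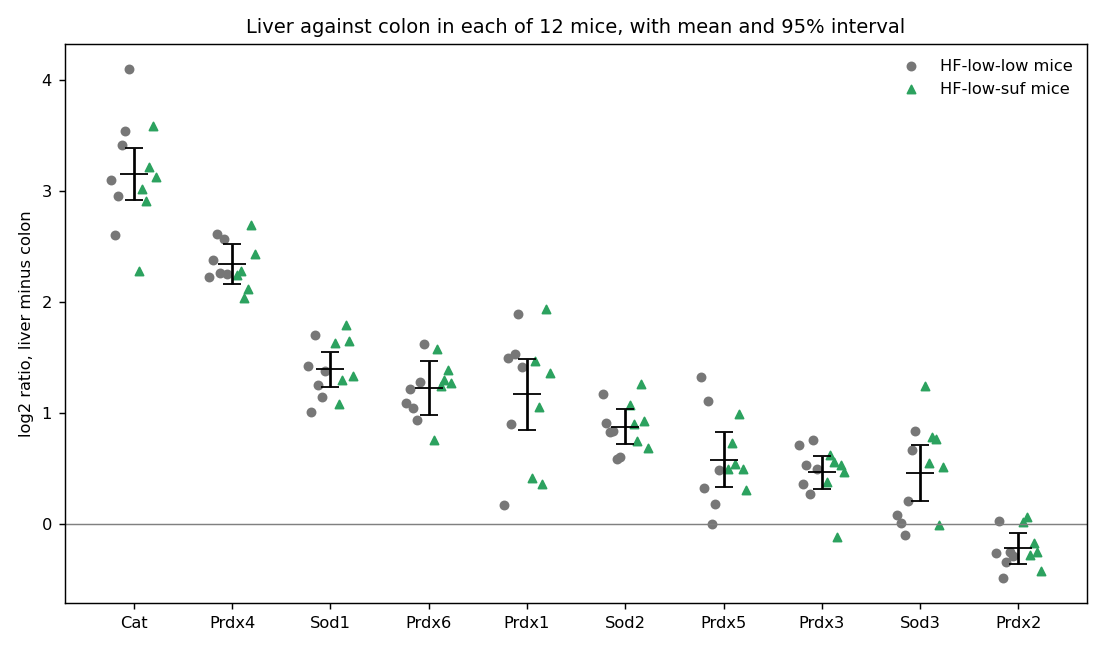
Liver minus colon difference of the log2 ratio (y axis) in each of the 12 mice, by post-weaning diet, with the mean and 95% interval in black and genes ordered by the mean. All mice lie above 0 for Cat, Prdx4, Sod1, Prdx6, Prdx1 and Sod2, and 9 of 12 lie below 0 for Prdx2.

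Among the peroxiredoxins, Prdx4 had the largest difference. Its protein works in the endoplasmic reticulum, where it oxidises protein disulfide isomerases with hydrogen peroxide. The log2 ratio of Prdx4 was lowest 1.26, median 1.44 and highest 1.82 in liver, and lowest -1.25, median -0.83 and highest -0.56 in colon. The gap between the lowest liver and the highest colon was wider than the range of either tissue. The difference was 2.35 (SE 0.09, 5.08-fold, limma adjusted P = 2.66e-18), and 4.31% of the well-detected probes had a larger one. Another Prdx4 probe, in the array files under a different transcript accession, was well above background on 1 array of each tissue and gives no fold.

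Prdx6 reduces phospholipid hydroperoxides with glutathione in place of thioredoxin. Its main probe gave -0.45, 0.31 and 0.65 as the lowest, median and highest log2 ratio in liver and -1.58, -0.97 and -0.58 in colon. The tissues did not overlap, and the difference was 1.23 (SE 0.12, 2.34-fold, limma adjusted P = 1.59e-09). A further probe of Prdx6 that was well above background on all arrays gave 1.43 (SE 0.15, 2.69-fold, adjusted P = 4.74e-09), also with the liver higher in 12 of 12 mice. On this probe the tissues overlapped, with a lowest liver of -0.09 and a highest colon of 0.06. The remaining pair of Prdx6 probes was dim in most arrays. The array also carries Prdx6-rs2, a sequence related to Prdx6, and what near-identical sequences contribute to one another's probes cannot be told apart.

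Prdx1, an abundant cytosolic peroxiredoxin and a known NRF2 target, was higher in liver by 1.17 (SE 0.15, 2.25-fold, limma adjusted P = 4.09e-07). Its livers ran from -0.29 to 0.74 with a median of 0.13 and its colons from -1.76 to 0.01 with a median of -1.10. All 12 mice had the higher value in liver, but 1 colon, of HF-low-low replicate 1, lay at 0.01 and within the range of the livers. The within-mouse difference ran from 0.18 in that mouse to 1.94 in HF-low-suf replicate 5. The SD over colons, 0.51, was larger than over livers, 0.28.

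The mitochondrial peroxiredoxins had smaller differences. Prdx3, which is found only in mitochondria, had a log2 ratio of 0.15 to 0.64 in liver (median 0.40) and -0.33 to 0.26 in colon (median -0.01). It was higher in liver by 0.47 (SE 0.07, 1.38-fold, limma adjusted P = 6.27e-06), in 11 of 12 mice. Prdx5, found in mitochondria, peroxisomes and cytosol, had -0.73 to -0.12 in liver (median -0.48) and -2.06 to -0.53 in colon (median -0.90). It was higher in liver by 0.58 (SE 0.12, limma adjusted P = 0.000245), in 11 of 12 mice. For both genes the tissues overlapped. Scaling each array by its median in place of loess ended both calls, with differences of 0.10 (adjusted P = 0.686) for Prdx3 and 0.26 (adjusted P = 0.307) for Prdx5.

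Prdx2 stood apart from the other well-detected genes, with a value slightly higher in colon. It is a cytosolic peroxiredoxin and one of the most abundant proteins of red blood cells. The main probe, printed in 10 spots per array, gave -0.75, -0.64 and -0.35 as the lowest, median and highest log2 ratio in liver and -0.47, -0.38 and -0.18 in colon. The ranges overlapped, and colon was higher in 9 of 12 mice. The difference of -0.22 (SE 0.07, 1.16-fold higher in colon, limma adjusted P = 0.0114, exact sign-flip P = 0.00391) had the same sign under every scaling tried, from -0.09 to -0.55. It was no longer called with the signals processed by Feature Extraction (adjusted P = 0.423), on the first scan day alone (adjusted P = 0.464), or without HF-low-suf replicates 4 and 5 (adjusted P = 0.0569). The other Prdx2 probes, both well above background on all arrays, gave -0.16 (SE 0.09, adjusted P = 0.225) and, for the probe printed above, -0.06 (SE 0.11, adjusted P = 0.730). Over 6 erythroid markers the mean log2 ratio was -0.37 to 0.73 in livers and -1.93 to -1.11 in colons, so that these markers ran the other way from Prdx2. Of them Hbb-b1, Hba-a1 and Alas2 were well above background on all arrays and Epb4.2 on none.

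**Figure D3:**
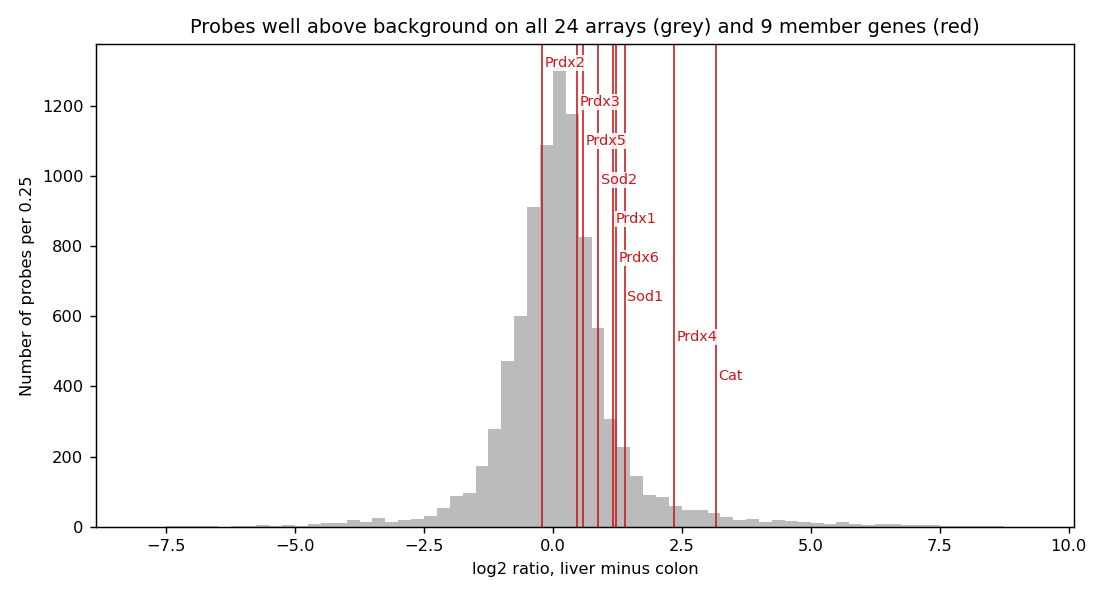
Number of probes (y axis, in bins of 0.25) by liver minus colon difference of the log2 ratio (x axis), for the 9113 probes well above background on all 24 arrays, with the 9 well-detected genes as red lines. Prdx2 is left of 0, Prdx3, Prdx5 and Sod2 lie between 0 and 1, and Prdx4 and Cat lie in the right tail.

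In order of the difference, the genes ran Cat, Prdx4, Sod1, Prdx6, Prdx1, Sod2, Prdx5, Prdx3 and Prdx2, leaving out Sod3. The 95% intervals of Cat (2.92 to 3.39) and Prdx4 (2.17 to 2.52) overlapped neither each other nor that of any gene below. Those of Sod1 (1.24 to 1.55), Prdx6 (0.98 to 1.47) and Prdx1 (0.85 to 1.48) overlapped one another, as did those of Prdx5 (0.34 to 0.83) and Prdx3 (0.32 to 0.61). The interval of Sod2 (0.72 to 1.03) overlapped those of Prdx6, Prdx1 and Prdx5. The interval of Prdx2 (-0.36 to -0.08) lay below 0.

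No diet effect on any of the 10 genes was called at a limma P below 0.01, without adjustment, together with a change of more than 1.5-fold. Both limits were passed by 0.117% of all probes in liver and 0.168% in colon. No gene of the 10 had an unadjusted limma P below 0.05 in either tissue, beside 2.13% of all probes in liver and 2.98% in colon, and no probe of the array passed Benjamini-Hochberg adjustment at 0.05. The 2 diets overlapped for every gene in both tissues. The median diet effect of the 10 genes, HF-low-suf minus HF-low-low, was 0.06 in liver and -0.04 in colon on the log2 scale, against 0.01 and -0.01 over all probes.

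**Figure D4:**
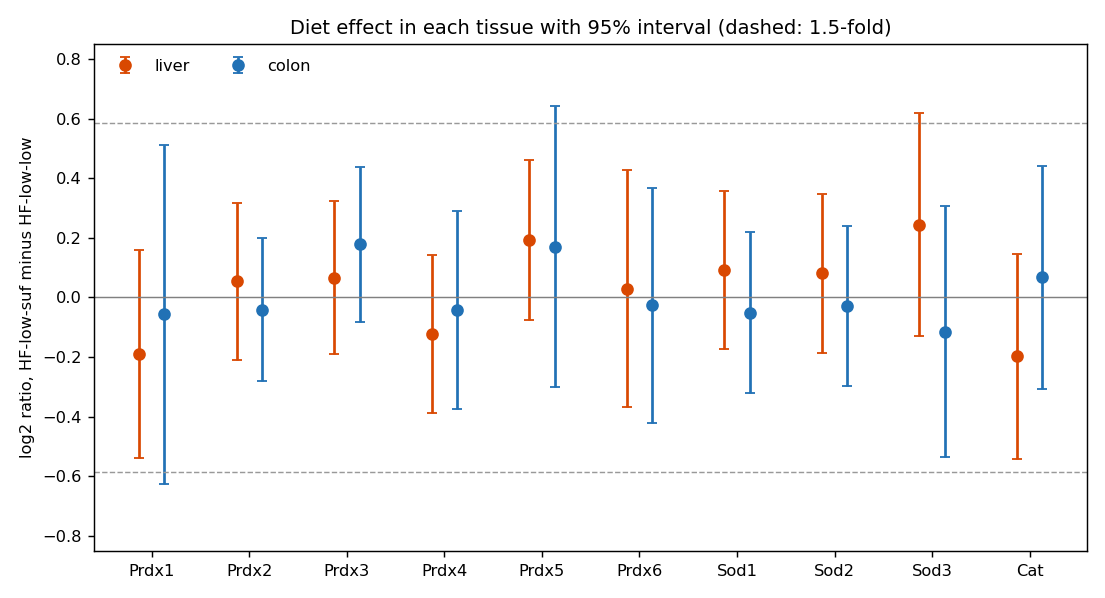
Diet effect on each gene (y axis, HF-low-suf minus HF-low-low, log2 ratio) in liver and colon, as points with 95% intervals from 6 mice per diet. Every interval includes 0, and those that reach past the dashed lines at 1.5-fold are Prdx1 and Prdx5 in colon and Sod3 in liver.

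Cat was lower with the sufficient diet in liver by a difference within its spread. The 6 HF-low-low livers had a lowest, median and highest log2 ratio of 0.71, 1.15 and 1.29, and the 6 HF-low-suf livers 0.39, 0.89 and 1.15. The difference was -0.20 (SE 0.16, 95% interval of the fold 0.687 to 1.11, limma P = 0.237, adjusted P = 1, exact P = 0.221). The lowest value was that of the liver with the high adipose markers, and without HF-low-suf replicates 1 and 2 the difference was -0.07 (SE 0.17). In colon the difference was 0.07 (SE 0.18, fold 0.808 to 1.36).

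Prdx1 in liver was lower with the sufficient diet on each of the 6 slides. Arrays with the same recorded scan time were taken as 1 slide, and each slide so defined carried 1 mouse of either diet. The HF-low-low livers had -0.04, 0.20 and 0.74 as lowest, median and highest log2 ratio and the HF-low-suf livers -0.29, -0.01 and 0.45. The ranges overlapped and the difference of -0.19 (SE 0.16, fold 0.689 to 1.12, limma P = 0.264, exact P = 0.251) did not pass the test. Without HF-low-suf replicates 1 and 2 it was -0.07 (SE 0.18).

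Prdx3 in colon and Prdx5 in liver had the smallest unadjusted P values of the well-detected genes. Colon Prdx3 had -0.33, -0.12 and 0.01 as lowest, median and highest log2 ratio with HF-low-low and -0.15, 0.04 and 0.26 with HF-low-suf. It was higher with the sufficient diet by 0.18 (SE 0.12, fold 0.946 to 1.35, limma P = 0.164, exact P = 0.0433), on 6 of 6 slides. The exact P, over all assignments of the mice to the diets, was taken before any adjustment for the 20 such tests of 10 genes in 2 tissues. Liver Prdx5 was higher by 0.19 (SE 0.12, fold 0.949 to 1.38, limma P = 0.145, exact P = 0.0779), on 5 of 6 slides.

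For the other genes the diet effects are given by their intervals. In liver the 95% interval of the fold was 0.865 to 1.25 for Prdx2, 0.876 to 1.25 for Prdx3, 0.765 to 1.10 for Prdx4, 0.774 to 1.35 for Prdx6, 0.888 to 1.28 for Sod1 and 0.879 to 1.27 for Sod2. In colon it was 0.824 to 1.15 for Prdx2, 0.772 to 1.22 for Prdx4, 0.746 to 1.29 for Prdx6, 0.801 to 1.16 for Sod1 and 0.814 to 1.18 for Sod2. With median centring the upper bounds of these genes were 1.39 to 1.68 in liver and 1.46 to 1.61 in colon, and on the further Prdx6 probe the colon interval was 0.805 to 1.62. Without HF-low-suf replicates 1 and 2, the liver difference was 0.17 (SE 0.20, fold 0.829 to 1.53) for Prdx6, -0.05 (SE 0.13) for Prdx2 and 0.13 (SE 0.19) for Sod3, against 0.03, 0.05 and 0.24 with them. Colon intervals of Prdx1 (0.649 to 1.43) and Prdx5 (0.812 to 1.56) were wider. The SD of Prdx1 was 0.52 in HF-low-low and 0.56 in HF-low-suf colons, and that of Prdx5 was 0.57 and 0.19. The colon of HF-low-low replicate 1 had the highest Prdx1 and the lowest Prdx5 of the 12.

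The diet effect in liver did not differ detectably from that in colon for any of the 10 genes. The tissue difference of the diet effect ran from -0.27 (SE 0.23) for Cat to 0.36 (SE 0.25) for Sod3, with limma P values of 0.156 and above and adjusted P values of 0.872 and above. Over all probes 0% were called by this test after adjustment, and 6.43% (2646) had an unadjusted P below 0.05, while 0 of the 10 genes did.

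The genes that supply or serve these enzymes were described with 6 fixed lists, with the same probe rule. Beside their counts stand the 41.5% called higher in liver and the 31.4% called higher in colon among probes well above background on all arrays, whereas the lists also hold genes that were dim in 1 or both tissues. Peroxisomal genes were the most one-sided. Of 17 genes of peroxisome import and membrane, 16 were called higher in liver and 1 higher in colon, with a median difference of 1.07. The largest were Pxmp2, a peroxisomal membrane channel, at 3.42 (SE 0.07), Pex5, the import receptor for most matrix enzymes including catalase, at 1.86 (SE 0.10), Pex16 at 1.55 (SE 0.09) and Pex7 at 1.46 (SE 0.10).

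Of 10 peroxisomal oxidases that form hydrogen peroxide, 8 were called higher in liver and 1 in colon, and their median was 2.28. Among the 9 that were well above background throughout at least 1 tissue, these counts were 7 and 1. Uox, urate oxidase, differed by 7.67 (SE 0.10), Acox2, an oxidase of bile acid intermediates and branched fatty acids, by 4.82 (SE 0.10) and Pipox, sarcosine and pipecolate oxidase, by 4.24 (SE 0.12). Hao1, glycolate oxidase, was well above background on 12 liver arrays and on no colon array. Hao2 (Hao3 on the array), a long-chain hydroxyacid oxidase, was the gene called higher in colon, at -2.26 (SE 0.18), with livers above background on 9 of 12 arrays.

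Of 8 genes of the metal supply of the superoxide dismutases, 5 were called higher in liver and 1 in colon, with a median of 0.86. Ccs, the copper chaperone of Sod1, differed by 1.68 (SE 0.09), Atox1, which passes copper to transport ATPases, by 1.43 (SE 0.12), Slc39a14, a zinc and manganese importer, by 1.32 (SE 0.09) and Atp7b, the copper exporter of hepatocytes, by 1.29 (SE 0.12). The copper exporter Atp7a was the gene called higher in colon (-0.72, SE 0.09).

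The list of the thioredoxin system, which regenerates most peroxiredoxins, and of peroxiredoxin repair also holds protein disulfide isomerases and glutaredoxins. Of its 19 genes, 6 were called higher in liver and 7 in colon, with a median of -0.11. These shares lie near those of all well-detected probes. Txnip, an inhibitor of thioredoxin, was higher in colon by a log2 difference of -2.84 (SE 0.15), as was Sesn1 with -1.05 (SE 0.10). Nnt, which makes mitochondrial NADPH, was higher in liver by 1.45 (SE 0.08) and Txnrd2, the mitochondrial thioredoxin reductase, by 1.06 (SE 0.10).

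Of 16 sources of superoxide, 7 were called higher in liver and 4 in colon, with a median of 0.16. Among the 8 of them that were well above background throughout at least 1 tissue, 3 were higher in liver and 4 in colon. Noxo1, a partner of the oxidase Nox1, was called higher in colon and was well above background on 12 colon arrays and 7 liver arrays. Noxa1 was well above background on 12 colon arrays and 1 liver array, and Duox1 on 12 liver arrays and 3 colon arrays. No size is given for Noxo1, Noxa1 and Duox1. Nox1 itself was well above background on 1 colon array and 0 liver arrays, and was not called in either direction. Aldehyde oxidase Aox1 was at 3.13 (SE 0.12). Among 11 glutathione peroxidases and partners, 5 were called higher in liver and 1 in colon, with a median of 0.15. Among the 8 that were well above background throughout at least 1 tissue, these counts were 4 and 1. The extremes were Gpx1 at 2.37 (SE 0.09) and Gpx2, the gastrointestinal form, at -4.00 (SE 0.16). The ligase subunits Gclc and Gclm lay at 1.84 (SE 0.17) and 1.07 (SE 0.20). No gene of the 6 lists was called by diet in either tissue.

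**Figure D5:**
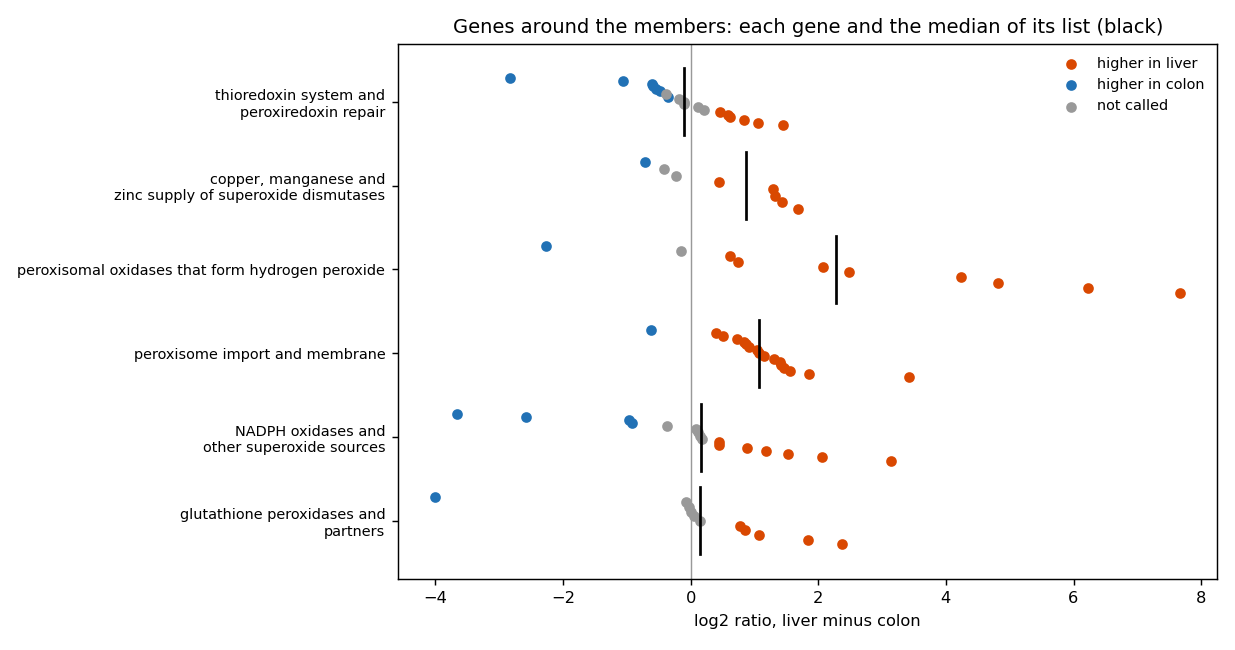
Liver minus colon difference of the log2 ratio (x axis) for each gene of 6 lists (rows), coloured by call at an adjusted P below 0.05, with the list median as a black line. Peroxisomal genes lie mostly right of 0, and those of the thioredoxin system and peroxiredoxin repair lie on both sides.

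The genes most like each member over the 24 arrays were taken as those with the smallest root mean square difference of mean-centred log2 ratios, among 12318 gene names. For Cat they were Dpyd (0.23) and Aldh6a1 (0.24), both with differences near 3 between the tissues (3.02 and 3.00). For Prdx4 they were Ifnar2 (0.15) and Rcl1 (0.19), for Prdx1 Gfm1 (0.18) and Gna12 (0.26), and for Prdx6 the nearest was the related sequence Prdx6-rs2 (0.21). Sod2 was closest to Preb and Pi4k2a (both 0.14), and Sod1 to a probe without a gene name (0.08) and to 1110031B06Rik (0.14). Prdx2 was closest to Coq2 (0.10) and Atp5c1 (0.11), Prdx3 to Pak1ip1 (0.13) and Gnpat (0.14), Prdx5 to AV124335 and Tmem85 (both 0.18) and Sod3 to A930037G23Rik (0.19) and Hps3 (0.26).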

How the data were processed

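The authors deposited 1 Feature Extraction 9.5 file per array. The intensity values used are the deposited mean signals of each spot in Cy3 and Cy5 with the median local background, not normalized. The intensity values processed by that software, deposited in the same files, were an alternative. Here signals were background corrected (normexp, offset 50), 1639 control spots of 45018 and outlier spots were left out, arrays were normalized by loess, and spots were averaged to 41174 probes (limma 3.58.1, statmod 1.5.0, R 4.3.3). Log2 ratios of Cy3 to Cy5 were tested with lmFit and eBayes. Tissues, and the tissue difference of the diet effect, were fitted over 24 arrays, with each mouse entered as a random block (correlation 0.158), since the labels give a mouse number shared by its liver and colon. Diets were fitted on the 12 arrays of each tissue, with the paper's threshold. Exact tests were two-sided, over 4096 sign arrangements or 924 assignments of the mice. Well above background means the software's flag in Cy3 on most spots of a probe. P-values cover the spread between mice, and the number of arrays limits precision. Gene names and probe positions (mm7) are those of the array files, except that Hao2 is listed there under its older name Hao3. Named were all 10 genes. From each list up to 4 were named, those with the largest called tissue difference and well above background throughout 1 tissue. Hao2, Atp7a and Nox1 were also named, after their values were seen. Some genes are not reported here. Genes and lists were chosen with earlier results of these data known. Alternatives covered background, scaling, filters, blocks, probes and left-out arrays. The tests were tested on simulated data.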

Additional observations from a re-analysis of the deposited data

Results flagged for a closer look

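Of the 40 groups of 6 arrays (10 genes, 4 groups), 2 held a sample far from the others, and chance gives about 1 in 20, that is 2. Both were the colon of HF-low-low replicate 1. Its log2 ratio of Prdx1 was 0.014, with the other 5 colons of that group between -1.42 and -0.94. Its log2 ratio of Sod2 was -1.13, with the others between -0.73 and -0.59. Leaving this mouse out changed no call for either gene, and the cause was not tested.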

How the results depend on the processing

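The 9 calls towards liver and the call of Prdx2 towards colon were all made again when any 1 mouse was left out, with 9 genes called higher in liver and 1 in colon each time. The count towards liver was 6 to 9 over all alternatives. The count towards colon fell from 1 to 0 with the signals processed by Feature Extraction, within scan day 1, without HF-low-suf replicates 4 and 5, and at an unadjusted P below 0.01 with a change above 1.5-fold. No diet effect and no tissue difference of one was called under any alternative. Replicate numbers mark slides shared by both diets: between same-numbered arrays of the diets, deviations correlated at r = -0.50 to 0.528 in liver and -0.085 to 0.238 in colon, so the numbers did not pair the mice across diets. With the slide as a replicate block the tissue difference of Prdx2 was -0.22 (limma adjusted P = 0.0273) and no call changed.

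Diet effects that were not called changed sign by more than their SE in these cases, and the cause was not tested. In liver these were Prdx3 within scan day 2 (-0.097), the dim Prdx6 probes (-0.532 and -0.188) and a dim Sod1 probe (-0.379). In colon they were Prdx1 (0.223), Prdx5 (-0.20) and Sod3 (0.207) within scan day 2, Prdx2 (0.111), Sod1 (0.099) and Sod2 (0.119) with median centring, Sod3 with the processed signals (0.111), the other Prdx2 probes (0.10 and 0.143), a Prdx6 probe (0.192) and the dim Sod1 probes (0.481 and 0.176). The tissue difference of the diet effect did so for Prdx5 (-0.332), Sod1 (-0.045) and Sod2 (-0.063) within scan day 1, Sod3 within scan day 2 (-0.146), a dim Prdx6 probe (-0.589) and the dim Sod1 probes (-0.86 and -0.094). Dim signal limits Sod3 and those probes.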
